A study of Danio rerio with 16 samples.

Results

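The genes described here are red cell genes and the muscle gene for myoglobin, measured in the fast muscle of adult zebrafish. Of 9 genes sought, 7 were represented on the array by a non-control probe whose RefSeq accession led to their symbol: the adult globins hbaa1, hbba1 and hbba2, the transcription factors klf1 and gata1a, the anion exchanger slc4a1a, each with 1 probe, and myoglobin (mb), with 3 probes. These are 9 of the 43803 non-control probes of the array. The α-globin hbaa2 and the haem enzyme alas2 had no probe by this rule and were not analysed here. The genes were chosen by name with the measured differences between exercised and non-exercised fish on these arrays in view, so those differences are given as a description, without a test of the set.

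Fish red blood cells keep their nucleus and continue to hold messenger RNA in the circulation, so a piece of muscle taken with its blood also carries red cell transcripts. Gata1 and Klf1 are the transcription factors that direct red cell maturation, the globins form the haemoglobin tetramer with its haem, and Slc4a1, band 3, exchanges chloride for bicarbonate across the red cell membrane. Myoglobin is the oxygen-binding haem protein of the muscle fibre itself, and is best known from red, oxidative muscle and from the heart.

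The exercised group comprised 8 wild-type adult fish that swam at 0.4 m/s for 6 h per day, 5 days per week, over 20 experimental days, and the non-exercised group comprised 8 wild-type adult fish that rested at 0.1 m/s. The fish came from a pet shop, and each group was kept in 1 swim tunnel of its own, so tunnel and training cannot be told apart. RNA of dorsal epaxial fast muscle from each fish was hybridised to 1 single-colour Agilent array, with 4 arrays on each of 4 slides, and each slide held 1 group. The 2 slides of exercised fish (slides 3 and 4) were scanned on another day than the 2 slides of non-exercised fish (slides 1 and 2), so slide and day of scanning cannot be told apart from training either.

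Each value below is the log2 of the processed spot signal minus that array's 75th percentile over non-control probes, called the level, and a level is compared only with other levels of the same probe. Between 21.1% and 54.0% of probes were well above background on an exercised array, against 33.7% to 48.5% on a non-exercised array, and the 4 exercised fish of slide 4 (fish 5 to 8) had fewer such probes (21.1% to 36.1%) than the 4 of slide 3 (44.1% to 54.0%). Spots that the scanner software marked as outliers were left out, which leaves some fish without a value for a probe. Probes were compared with limma over the whole table, and a probe is called where the Benjamini-Hochberg adjusted p is under 0.05. Over all probes, 6.37% were called (4.58% with a higher level in exercised fish, 1.79% with a lower one), and the median difference was 0.26 on the log2 scale. In a bulk piece of muscle, more red cells and more RNA per red cell cannot be told apart.

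The α-globin hbaa1 (probe A_15_P120112) had a lowest level of 2.22, a median of 3.03 and a highest of 5.11 in the 8 exercised fish, against -0.31, 1.65 and 2.83 in the 8 non-exercised fish. All 8 exercised fish lay above the non-exercised median and 5 lay above every non-exercised fish. Exercised fish 6 was the highest and stood well clear of the next fish, at 3.43, while non-exercised fish 6 and 7 were the lowest of their group, at 0.44 and -0.31. The log2 difference, exercised minus non-exercised, was 1.56 ± 0.47 (SE).

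Of the β-globins, hbba1 (A_15_P109013) spanned 7.92 to 9.35 with a median of 8.15 in 7 exercised fish, against 5.81 to 8.34 with a median of 7.19 in 7 non-exercised fish. Here 3 exercised fish lay above every non-exercised fish, exercised fish 6 was again the highest, and non-exercised fish 6 and 7 were again the lowest, at 5.81 and 5.92. The difference was 1.32 ± 0.39. The second β-globin, hbba2 (A_15_P110978), spanned 3.57 to 5.75 with a median of 5.02 in 8 exercised fish, against 2.71 to 4.65 with a median of 3.60 in 7 non-exercised fish, a difference of 0.97 ± 0.40. Its ranking of fish was another one: exercised fish 7 was the highest, and non-exercised fish 3, not 7, was the lowest. Non-exercised fish 6, which was low for hbaa1 and hbba1, had no value here. In the GRCz12tu assembly hbaa2, hbba2, ba1l, hbaa1 and hbba1 lie next to each other in this order, and how far a probe of one of these genes binds transcripts of its neighbours was not tested.

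klf1, the erythroid Krüppel-like factor that drives adult globin transcription, had the widest separation of the 9 probes. Its probe (A_15_P108546) spanned -0.73 to 1.55 with a median of -0.07 in the exercised fish, against -4.24 to -2.09 with a median of -2.83 in the non-exercised fish, so that the groups did not overlap. Over all probes, 1.12% had every exercised fish above every non-exercised fish and 0.224% had every exercised fish below. The probe was well above background on 7 exercised arrays and on none of the non-exercised arrays. In the main processing this makes the exercised level at least 4.39-fold higher. This bound sets the mean of the exercised fish against the mean of, per non-exercised array, the lowest signal well above background there or the probe's own signal where that was higher. Exercised fish 8, where the probe was not well above background, is included as measured. The fitted difference of 3.09 ± 0.38 rests on non-exercised signals that were not well above background, and was 1.60 to 3.47 over the alternatives. No bound was computed under the alternatives.

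A second probe, LOLS00440, carries the older name klfd, a synonym of klf1, in the authors' table of their differentially expressed probes, so it was named through the same contrast and lies outside the rule. Its levels spanned -2.63 to 0.98 in exercised fish and -4.98 to -2.55 in non-exercised fish, and 7 of 8 exercised fish lay above every non-exercised fish. It was well above background on 3 exercised arrays and on none of the non-exercised arrays. The bound was 1.29-fold, with the exercised signals that were not well above background included as measured. The deviations of the 2 klf1 probes from their group means correlated across the 16 fish with r = 0.79.

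gata1a (A_15_P100366) was close to background on most arrays. Its levels spanned -4.31 to 0.33 with a median of -1.94 in exercised fish, against -4.79 to -2.96 with a median of -3.60 in non-exercised fish, and it was well above background only in exercised fish 1 and 6. The bound was 1.01-fold, which says little about the size of the difference, and the fitted difference was 1.75 ± 0.60. The bound used the mean of all exercised fish, most of them not well above background. The 4 exercised fish of slide 4 averaged -0.88 and those of slide 3 averaged -3.22, and the negative control spots were also higher on slide 4 (mean -2.86 on the log2 scale) than on slide 3 (-4.66). The part of this background in the gata1a levels was not tested.

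The band 3 gene slc4a1a (A_15_P119878) showed a few high fish rather than a shift of the group. It spanned 1.16 to 4.92 with a median of 1.25 in 7 exercised fish, against -0.79 to 2.75 with a median of 1.24 in 8 non-exercised fish. The medians nearly coincide, and the difference of 0.57 ± 0.58 rested on exercised fish 6, at 4.92, and fish 1, at 2.18: without these fish it was -0.08.

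**Figure D1:**
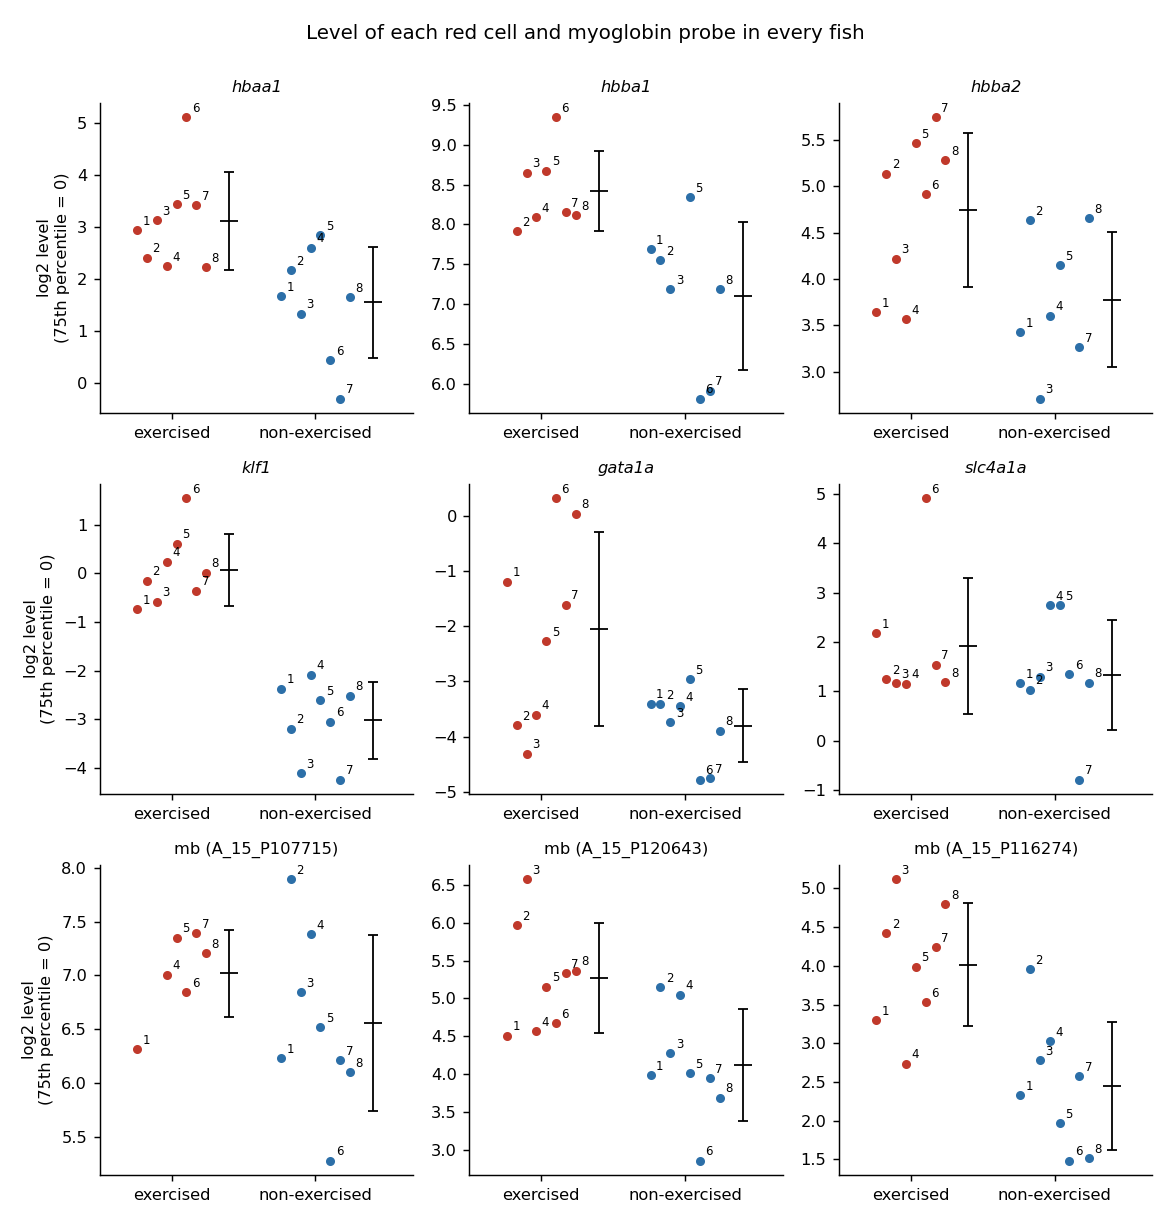
Level of each probe (log2 of the processed signal relative to the 75th percentile of the array) in every fish, exercised fish in red on the left of each panel and non-exercised fish in blue on the right, with the fish number beside each point and the mean ± SD beside each group. The groups are apart for klf1 only, and exercised fish 6 is the highest fish for hbaa1, hbba1, klf1, gata1a and slc4a1a, but not for hbba2 or any myoglobin probe.

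Myoglobin was read by 3 probes of the same transcript, all well above background on all 16 arrays. The brightest (A_15_P107715) spanned 6.32 to 7.39 with a median of 7.11 in 6 exercised fish, against 5.28 to 7.90 with a median of 6.38 in 8 non-exercised fish, and no exercised fish lay above the non-exercised range. Its difference was 0.46 ± 0.37. Exercised fish 2 and 3, the 2 highest fish on the second mb probe, have no value here, since their spots were left out as outliers.

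The second mb probe (A_15_P120643) spanned 4.51 to 6.58 with a median of 5.24 in exercised fish, against 2.85 to 5.15 with a median of 4.00 in non-exercised fish, a difference of 1.15 ± 0.36. The third (A_15_P116274) spanned 2.73 to 5.12 with a median of 4.12 in exercised fish, against 1.48 to 3.96 with a median of 2.45 in non-exercised fish, a difference of 1.56 ± 0.39. On each of these probes 5 exercised fish lay above every non-exercised fish, exercised fish 3 was the highest fish of all, and non-exercised fish 6 was the lowest. The 3 probes of 1 gene gave differences from 0.46 to 1.56, but not over the same fish. The 0.46 of the brightest probe rests on 6 exercised fish, without exercised fish 2 and 3, and the other probes on 8.

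Of the 9 probes, 2 were called in the fit over all probes, klf1 and the mb probe A_15_P116274, both higher in exercised fish, beside 4.58% of all probes called higher. The mb call was lost without exercised fish 2 (adjusted p = 0.0511 by limma) or exercised fish 3 (adjusted p = 0.0505). All 9 fitted differences were positive, and each was above the median difference of all probes, 0.26. After a shift to the median of the array in place of the 75th percentile, which brings the median difference of all probes to 0.01, they ran from 0.19 for the brightest mb probe to 2.84 for klf1 and kept their direction. With the slide as a random block, 0.187% of all probes and 1 of the 9, klf1, were called. Set against all non-exercised fish, the fish of slide 3 alone gave differences of 2.71 for klf1, 1.13 for hbaa1 and 0.58 for gata1a. Those of slide 4 alone gave 3.47 for klf1, 2.00 for hbaa1 and 2.93 for gata1a. The median difference of all probes also moved, from -0.30 with slide 3 alone to 0.61 with slide 4 alone.

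**Figure D2:**
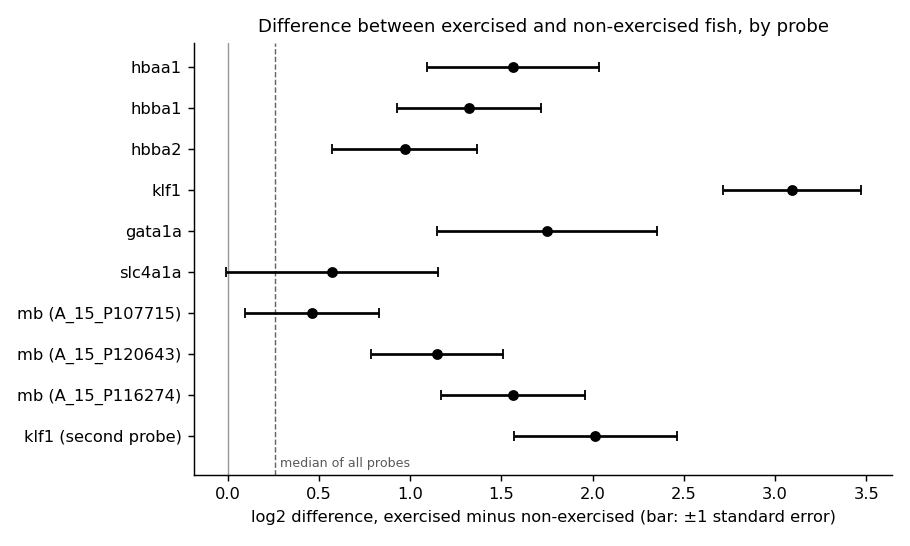
Fitted log2 difference, exercised minus non-exercised, for the 9 probes and the second klf1 probe, with a bar of 1 standard error on each side and a dashed line at the median of all probes, 0.26. The klf1 probe is farthest from it, at 3.09, and the brightest mb probe nearest, at 0.46; klf1, its second probe and gata1a were not well above background in any non-exercised fish.

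Whether the red cell genes vary together from fish to fish was examined on the deviations of each fish from its group mean, which leave out the difference between the groups. Among the 6 red cell genes, all 15 pairs were positively correlated, with a median r of 0.53 and a range of 0.13 to 0.90. Between the red cell genes and the 3 mb probes, the 18 pairs had a median r of 0.09 and a range of -0.26 to 0.42. By mb probe the median of 6 pairs was 0.30 for the brightest, 0.03 for the second and 0.04 for the third. Beside these, probes with a symbol, well above background on every array and without missing fish, also tended to positive values. Their median r was 0.25 with the mean of the 3 globins and 0.29 with the brightest mb probe. With that same globin mean, r was 0.53 for the brightest mb probe over 14 fish, and 0.34 for the second and 0.24 for the third over 16. It was 0.68 for slc4a1a over 15 fish, and 0.65 for klf1 and 0.52 for gata1a over 16. The r of the brightest mb probe was thus near that of gata1a, but not over the same fish. Exercised fish 2 and 3, missing from it, were the 2 highest on the second mb probe. Their globin mean deviations were -0.27 and -0.10. Within the exercised fish the median of the 18 pairs with mb was -0.20. Within the non-exercised fish it was 0.23, where r reached 0.61 for gata1a and 0.59 for hbaa1 with the brightest mb probe. gata1a and klf1 were well above background on no non-exercised array, so their correlations within that group rest on signals near background. The 3 mb probes correlated with each other at r = 0.80 to 0.96. The difference between these sets of correlations was not tested, since the pairs share fish and probes.

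The tightest red cell pair was hbaa1 with hbba1, the α and β chain of the same tetramer (r = 0.90, Spearman's rho = 0.90 over 14 fish, permutation p = 6e-05 and 8e-05, adjusted over the 36 pairs to 0.00072 and 0.00096). It held within the exercised fish (r = 0.90), within the non-exercised fish (0.95), on deviations from the slide mean (0.91) and without the 2 fish farthest from the hbaa1 median (0.86). hbaa1 with slc4a1a followed (r = 0.87, rho = 0.63 over 15 fish, permutation p = 0.00038 and 0.0123, adjusted p = 0.00342 and 0.0887), and was 0.63 without exercised fish 6 and non-exercised fish 7, the 2 farthest.

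In the permutation test, 6 of the 15 red cell pairs had an adjusted p under 0.05 for r and 1 for rho, against 0 of the 18 pairs with mb for either measure. The other 4 were hbaa1 with klf1 (r = 0.67, rho = 0.60), hbba1 with slc4a1a (0.70 and 0.52), klf1 with slc4a1a (0.74 and 0.49) and gata1a with slc4a1a (0.60 and 0.53), each with an adjusted p of 0.0332 for r and of 0.132 to 0.187 for rho. Both pairs with klf1 rest on exercised fish 6 and non-exercised fish 7: without them r was 0.27 for hbaa1 with klf1 and 0.25 for klf1 with slc4a1a. For gata1a with slc4a1a r was 0.59 without its 2 farthest fish, exercised fish 2 and 3, and 0.32 without exercised fish 1 and 6. Only exercised fish 1 and 6 had gata1a well above background. gata1a did not pass with hbaa1 (r = 0.53, adjusted permutation p = 0.0675), hbba1 (0.49, adjusted p = 0.065) or klf1 (0.42, adjusted p = 0.293). The median over the 15 pairs was 0.35 when the 2 farthest fish were left out of each pair and 0.55 on deviations from the slide mean. Within the exercised fish it was 0.46 and within the non-exercised fish 0.69. The value for non-exercised fish includes the pairs of klf1 and gata1a, which were well above background on none of those arrays. In those fish 12 listed fast muscle genes also had a high median r with hbaa1, 0.87.

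hbba2 was the red cell gene least like the others, with r between 0.13 and 0.37 to the other 5, none with an adjusted p under 0.05. Its correlations with the 3 mb probes, 0.21 to 0.39, lay in the same range. The deviations of hbba2 also went with array measures: over 15 fish they correlated at r = -0.59 with the share of probes well above background and 0.62 with the level of the negative control spots, against -0.33 and 0.35 for hbaa1 over 16 fish. On deviations from the slide mean the values for hbba2 were -0.21 and 0.33. For gata1a they were -0.59 and 0.56 on deviations from the group mean, and -0.09 and 0.05 on deviations from the slide mean. hbba1 and the 3 mb probes ran opposite to the unnormalised 75th percentile signal of the array (r = -0.65 for hbba1, and -0.69, -0.68 and -0.48 from the brightest to the third mb probe). The other red cell genes had r of -0.37 to 0.10. On deviations from the slide mean r was -0.70 for hbba1, and -0.53, -0.60 and -0.34 for the mb probes. For the other red cell genes it was then -0.52 (hbba2), -0.36 (klf1), -0.30 (hbaa1), -0.02 (slc4a1a) and 0.26 (gata1a). That percentile is subtracted in the level, so the level and the percentile are not independent measures. These are descriptions, and the part of array quality in the correlations was not tested.

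**Figure D3:**
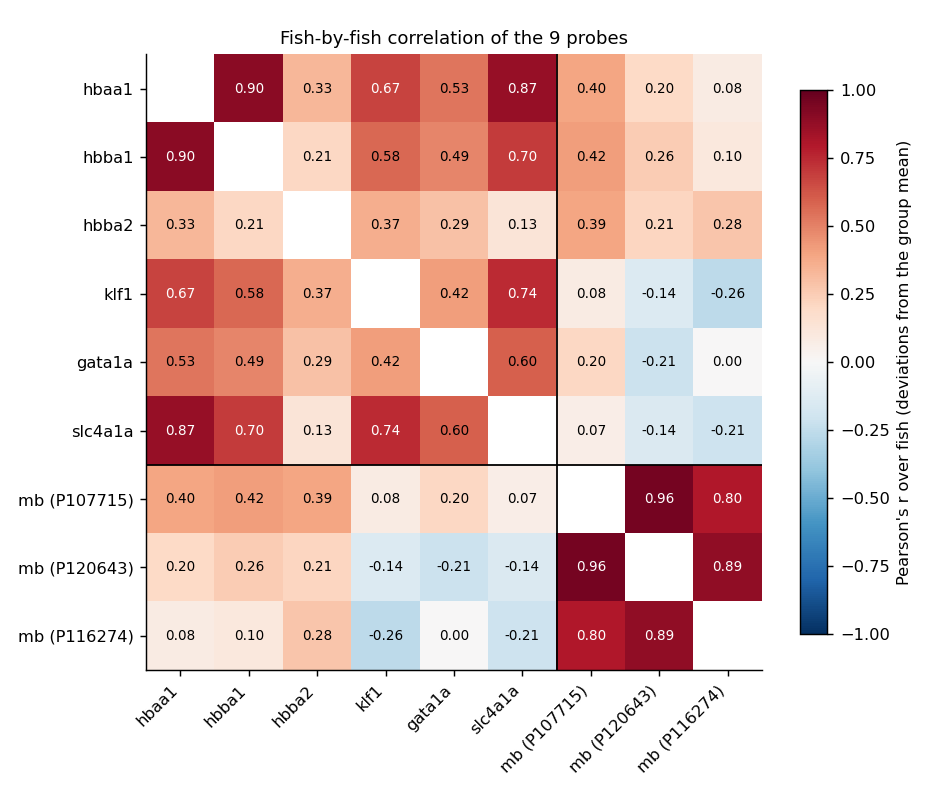
Pearson's r between the 9 probes over fish, on deviations from the group mean, with red for positive and blue for negative values and lines setting off the 3 mb probes. The red cell block holds values of 0.13 to 0.90, the mb block 0.80 to 0.96 and the block between them -0.26 to 0.42.

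Fish by fish, the mean deviations of the red cell genes and of myoglobin had the same sign in 9 fish (5 exercised, 4 non-exercised) and opposite signs in 7. Exercised fish 6 was the highest exercised fish in 5 of 6 red cell genes, with a mean deviation of 1.66 on the log2 scale, and lay below its group mean in all 3 mb probes, with a mean deviation of -0.42. Exercised fish 3, the highest in both mb probes measured in it, deviated by 1.21 in mb and by -0.66 in the red cell genes. That red cell mean includes gata1a, which was not well above background in this fish and at its lowest exercised level, -4.31. The mean deviation of the 3 globins in this fish was -0.10. Among non-exercised fish, fish 5 was above its group mean in 6 of 6 red cell genes (0.93) and below it in mb (-0.21), and fish 7 was below it in all 6 (-1.31) but close to it in mb (-0.13). Other fish deviated the same way in both. Exercised fish 4 was low in the red cell genes (-0.75) and in mb (-0.67), and so was non-exercised fish 6 (-0.68 and -1.17). Non-exercised fish 4 was high in both (0.71 and 0.78), and non-exercised fish 2, the highest of its group in all 3 mb probes (1.29), was above its mean in the red cell genes (0.31).

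**Figure D4:**
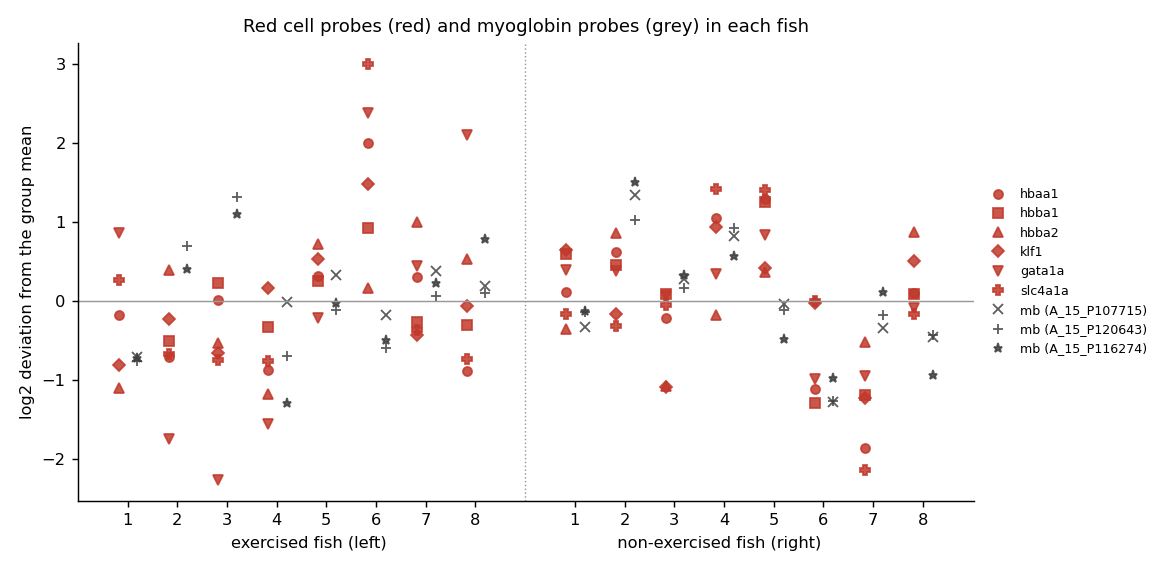
Deviation of each fish from its group mean (log2) for the 6 red cell probes (red symbols) and the 3 mb probes (grey symbols), exercised fish 1 to 8 on the left and non-exercised fish 1 to 8 on the right. Exercised fish 6 has red cell deviations up to 3.00 with all mb symbols below 0, and exercised fish 3 has the highest mb symbols of its group with 4 of 6 red cell symbols below 0.

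Exercised fish 6 also stood apart in genes of other cells. Of the listed skin genes that passed background on all 16 arrays, it was the highest exercised fish in 4 of 4, among them the keratin krt4 (6.43, against an exercised median of 4.45), in 2 of 4 leukocyte genes (lyz and coro1a) and in none of the 12 listed fast muscle genes. Over all 2540 such probes with a symbol it was the highest in 12.2%. The neutrophil and macrophage gene lyz, for lysozyme, stood at 8.13 in this fish, against an exercised median of 2.18, and coro1a at 3.95, against 2.67. Among the dimmer leukocyte genes of the list this fish was also the highest exercised fish for cxcr4b and mfap4.1. For the other dimmer genes it was not: it ranked 3 among the exercised fish for mpeg1.1 and mpx, 5 for mmp9 and 6 for lck and csf1ra. Over 15 fish lyz correlated with hbaa1 at r = 0.60 (rho = 0.41, adjusted p = 0.242 and 0.373), which was 0.06 without the 2 fish farthest from the hbaa1 median. The summed level of the 10 leukocyte probes measured in every fish, lyz not among them, ran from 3.01 to 5.77 in exercised fish and from 3.49 to 7.37 in non-exercised fish, and was highest among exercised fish in fish 7. The part of other cells in the red cell values of fish 6 was not tested.

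Other red cell genes were taken from a list of 46, of which 19 had a probe, and set against hbaa1 and the brightest mb probe in the same way. Of these, 11 were well above background on 14 or more arrays. With hbaa1 they had a median r of 0.80 (0.18 to 0.93), and with mb a median r of 0.42 (0.05 to 0.68). These rest on 13 to 16 fish for hbaa1 and on 13 or 14 for mb, 5 or 6 of them exercised. For the 7 genes well above background on all 16 arrays, the median r was 0.42 with the brightest mb probe, 0.29 with the second and 0.13 with the third. Over all 19, the dim probes included, the medians lay closer together, at 0.46 with hbaa1 (-0.08 to 0.93) and 0.39 with mb (-0.38 to 0.68). Within the exercised fish the medians of the 11 were 0.84 with hbaa1 and -0.16 with mb, and within the non-exercised fish 0.79 and 0.60. At the same cut, the non-exercised median with hbaa1 was 0.87 for 12 fast muscle genes and 0.65 for 5 endothelial genes. It was 0.23 for 4 slow muscle genes and -0.65 for 7 leukocyte genes. The 4 heart genes, 3 of them well above background on no array, had 0.86. A high r with hbaa1 within the non-exercised fish was thus not particular to red cell genes. Over the probes with a symbol, a signal well above background on every array and no missing fish, the median r was 0.25 with the mean of the 3 globins and 0.29 with the brightest mb probe. With that globin mean, the 7 red cell genes had a median r of 0.66 (0.39 to 0.86). At the same cut, 12 fast muscle genes had 0.43 (0.17 to 0.74), 5 endothelial genes 0.45 (-0.02 to 0.56), 4 skin genes 0.44 and 4 leukocyte genes -0.16. The ranges of the red cell and fast muscle genes thus overlapped.

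With p adjusted over 170 relations, of 85 listed genes with hbaa1 and with mb, 6 of the 19 red cell genes had an adjusted p under 0.05 with hbaa1 for both r and rho, and none with mb. They were tal1, the transcription factor that opens the blood programme (r = 0.93), the membrane skeleton genes epb41b (erythrocyte membrane protein band, 0.91) and sptb (β-spectrin, 0.89), the red cell carbonic anhydrase cahz (0.83), the Tal1 partner lmo2 (0.80) and the nucleotidase gene nt5c2l1 (0.80). Their adjusted p was 0.00085 to 0.017 for r and 0.00255 to 0.0179 for rho, over 16 fish. Without the 2 fish farthest from the hbaa1 median r was 0.68 to 0.87, and on deviations from the slide mean 0.76 to 0.92. The antioxidant gene prdx2 gave a similar r (0.78 over 13 fish), which did not pass (adjusted permutation p = 0.0828). ank1a, an ankyrin gene of the list, gave only 0.18 with hbaa1 and 0.42 with mb. The list's early blood factor gata2a gave 0.23 with hbaa1 and 0.68 with mb.

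**Figure D5:**
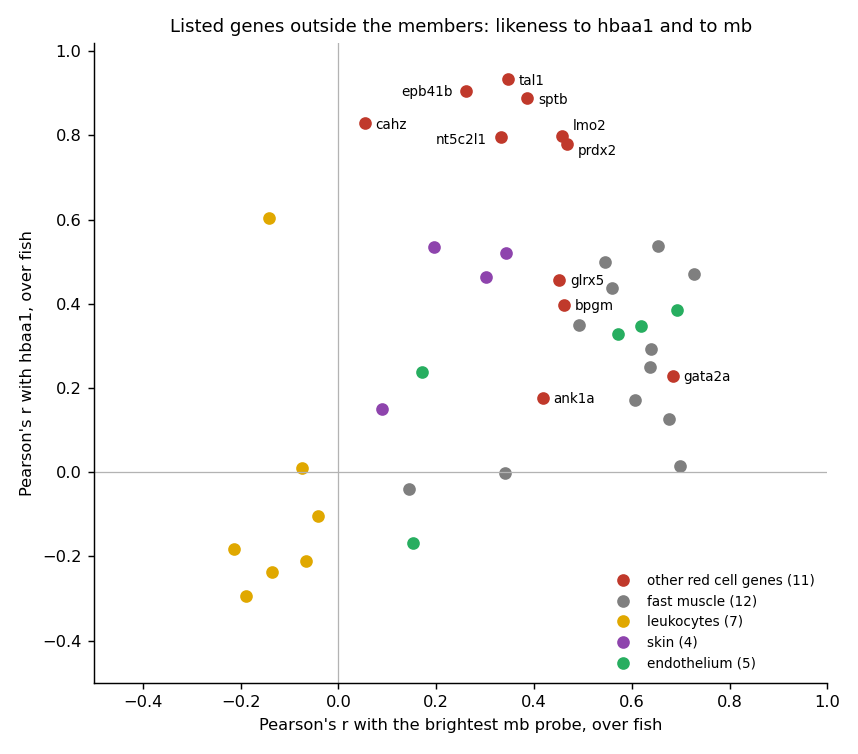
Each point is a listed gene outside the members that was well above background on 14 or more arrays, placed by Pearson's r over fish with the brightest mb probe (horizontal axis) and with hbaa1 (vertical axis), on deviations from the group mean, with the number of genes per list in the legend. Of the 11 red cell genes, 7 lie between 0.78 and 0.93 on the vertical axis, above all 28 genes of the other 4 lists drawn.

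None of the 6 genes that passed with hbaa1 was called between the groups. sptb averaged -0.40 in exercised fish and -0.47 in non-exercised fish, a difference of 0.07 ± 0.28. For tal1 (1.09 ± 0.38, adjusted p = 0.0959), epb41b (1.37 ± 0.48, adjusted p = 0.0976) and cahz (1.36 ± 0.49, adjusted p = 0.109) the difference by limma was nearer to that of hbaa1. The only called gene of the 19 was ank1a (1.41 ± 0.37, adjusted p = 0.0286), at 4.94 to 7.09 in exercised fish and 3.62 to 5.95 in non-exercised fish, the gene with the lowest r with hbaa1 among the 11. Of the list, 18 of 19 differences were positive, beside 3241 of 5952 genes by their brightest probe, of which 3.21% were called higher. The median was 0.65 for the list and 0.07 for those genes, and under 6 alternatives the list median was lower, at 0.26 (normexp background correction) to 0.58.

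The embryonic globins on the array, hbae1.1, hbae3 and hbbe2, were well above background on no more than 1 of 16 arrays each. Of 16 listed genes of haem synthesis and breakdown, 5 had a probe, all of them synthesis genes (alas1, hmbsa, uros, urod and fech). Only uros, for uroporphyrinogen synthase, was called (0.86 ± 0.26, adjusted p = 0.04996 by limma), at 1.23 to 2.56 in exercised fish and 0.51 to 1.89 in non-exercised fish. The differences of alas1 (0.63 ± 0.29), fech (0.54 ± 0.25) and hmbsa (0.04 ± 0.30) were also positive, and that of urod was negative (-0.63 ± 0.40). Over fish, the 5 genes, all well above background on 14 or more arrays, had a median r of 0.17 with hbaa1 and 0.02 with mb. The 11 red cell genes at the same cut had 0.80 and 0.42, and all 19 red cell genes with a probe had 0.46 and 0.39. The other globins of the list, cygb1 and ngb, were not called, and ngb was well above background on no array.

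By likeness over the 2179 probes with a symbol that passed background on every array and had a value in all 16 fish, the gene most like the mean of the 3 globins was epb41b (r = 0.86, rho = 0.86). It was followed by ndufs6, a subunit of respiratory complex I (0.79), nt5c2l1 (0.79), fbxw5 (0.78) and mrps33, of the mitochondrial ribosome (0.78). Of these probes, 0.0918% exceeded r = 0.8, hbaa1 itself and epb41b. The 5 genes most like the brightest mb probe, of 2182 probes over 14 fish, were others: csnk1a1 (0.86), rhoaa (0.83), ndufb2 (0.81), atp5mc3a (0.81) and ndrg2 (0.81), where 0.458% (10 probes, the 3 mb probes among them) exceeded 0.8. ndufb2 and atp5mc3a encode subunits of complex I and of the ATP synthase. These genes were picked as the highest, so no p is given.

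Lists of muscle and vessel genes had a higher median r with mb than with hbaa1, an order that did not hold under every treatment of the fish. The 12 fast muscle genes had a median r of 0.62 with mb and 0.27 with hbaa1, and the 5 endothelial genes 0.57 and 0.33, with no gene of either list passing for either reference. Without the 2 fish farthest from the median of mb or hbaa1, the order turned round: 0.18 with mb and 0.41 with hbaa1 for the fast muscle genes, and 0.31 and 0.39 for the endothelial genes. On deviations from the slide mean it held, at 0.61 with mb and 0.12 with hbaa1 for the fast muscle genes, and 0.44 and 0.30 for the endothelial genes. Outlier spots left the 12 fast muscle genes with 8 to 16 fish for hbaa1, 4 to 8 of them exercised. For the brightest mb probe 7 to 14 fish remained. The fast muscle median with hbaa1 was -0.53 in exercised fish and 0.87 in non-exercised fish. The difference between the groups in these medians was not tested. The slow muscle genes, 4 of them well above background on 14 or more arrays, gave 0.27 with mb and 0.19 with hbaa1, and 0.18 and 0.14 without the 2 farthest fish.

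Between the groups, the slow muscle list (5 probes without mb) had a median difference of -0.16 with none called, against 0.46 to 1.56 for the mb probes. Of 14 fast muscle genes, 12 had a positive difference, and casq1a (1.42 ± 0.40, adjusted p = 0.0385) and tnni2b.2 (1.33 ± 0.34, adjusted p = 0.0309) were called higher. tnnt3a was called lower (adjusted p = 0.0135), at -5.59 to -1.94 in exercised fish and -3.87 to 1.34 in non-exercised fish, and was well above background on 0 exercised arrays and 7 non-exercised arrays. No gene was called among 11 leukocyte genes (median -0.63, 9 lower), 7 endothelial genes (0.30), 6 skin genes (0.39), 4 heart genes (0.35, where cmlc1, myl7 and nppa were well above background on no array), 2 thrombocyte genes (0.54) and 6 oxygen-sensing genes (0.73). Among 4 liver genes apoa1a was called higher (adjusted p = 0.0482 by limma). It was well above background on 1 exercised array and 0 non-exercised arrays, so no size is given. Only one oxygen-sensing gene, epas1a, passed with mb (r = 0.77, rho = 0.78, adjusted p = 0.0396 and 0.0393), and it was well above background on 1 array.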

How the data were processed

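Dorsal fast muscle of 8 exercised and 8 non-exercised fish was hybridised to 16 single-colour (Cy3) arrays of a custom zebrafish design, 1 fish per array. The deposited scanner files hold spot intensities on a linear scale, extracted by the authors with Agilent Feature Extraction 10.7.3.1, which subtracts background and flags outlier, saturated and well-above-background spots. A further deposited table lists only probes that the authors had called, with log2 values after a 75th percentile shift, centred per probe. Its p-values come from the authors' unpaired t-test and its fold changes are ratios between the group means, as the authors gave them; neither was used, but its gene descriptions named the second klf1 probe. Values recomputed by the same steps differed from its log2 values by a median of 0.00108 over 2985 probes.

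Here, log2 processed signals were shifted by the 75th percentile of each array, leaving out 49 to 892 outlier spots per array; no spot was saturated. All 43803 non-control probes were compared in 1 fit with limma 3.58.1 (R 4.3.3) and Benjamini-Hochberg adjustment, called at an adjusted p under 0.05 (two-sided). Where a member probe or the second klf1 probe passed background in no fish of a group, a bound is given in place of a fold. For listed genes no bound was computed. Probes took symbols from RefSeq accessions through a gene table of the GRCz12tu assembly (9104 probes, 5952 symbols); its coordinates served only for the order of the globin genes and none is printed, nor any sequence. The brightest probe stands for a listed gene. Pearson's r and Spearman's rho were computed on deviations from the group mean, with two-sided p from 100000 permutations within groups (the smallest they can give is 1e-05), in Python 3.11.15 with numpy 2.4.6 and scipy 1.17.1. Likeness and array measures are descriptions without p. The fish are the replicates and their number limits the precision; the depth of an array has no counterpart in reads. The fit and the permutation test were tested on simulated data.

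The members and the gene lists were chosen with earlier results of these data known. Named outside the members are the 5 genes most like the mean of the globins and the 5 most like the brightest mb probe, and the called genes of each list; other listed genes, and exercised fish 6 and lyz, were named after their values were seen. Alternatives were other background corrections and normalisations, filters on dim probes, the methods' t-test, array weights, the slide or the replicate number as a block, kept outlier spots and each fish left out in turn; leaving out exercised fish 1 and 6 together and using each exercised slide alone were added after seeing the data.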

Additional observations from a re-analysis of the deposited data

Results flagged for a closer look

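Among 54 groups of fish examined for a single fish far from the others, 6 held one, where chance gives about 1 in 20 groups. Exercised fish 6 accounted for 3 of them: hbaa1 stood at 5.11 in this fish with the nearest exercised fish at 3.43, slc4a1a at 4.92 with the nearest at 2.18, and the second klf1 probe at 0.98 with the nearest at -1.71. In nt5c2l1, which varied with hbaa1, exercised fish 4 was the lowest at 0.53 with the nearest at 2.04. In the genes most like mb, exercised fish 1 was the lowest for rhoaa at 0.65 with the nearest at 1.70, and non-exercised fish 6 was the lowest for ndrg2 at 1.69 with the nearest at 2.90, the same fish that was lowest in all 3 mb probes. No cause of these values was tested.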

How the results depend on the processing

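The klf1 probe kept its call in all 30 alternatives that could test it, with differences of 1.60 to 3.47. The count of member probes called, 2, was 5 without background correction, with quantile normalisation, with cyclic loess and by the methods' t-test at an unadjusted p under 0.01 (2 after Benjamini-Hochberg adjustment), 4 where dim probes were left out (8 arrays or all 16 above background), and 1 with the slide as a random block, with array weights and with slide 3 alone. It was 6 with slide 4 alone, where 35.7% of all probes were called. With 1 fish left out it was 1 to 4. It was 1 without exercised fish 2 (3.92% of all probes), and 4 without exercised fish 1 (9.31%) or non-exercised fish 4 (5.76%) or 5 (5.05%). The call of the mb probe A_15_P116274 was lost in 5 alternatives, with an adjusted p of 0.441 with the slide block, 0.0624 with array weights, 0.0511 without exercised fish 2, 0.0505 without exercised fish 3 and 0.118 with slide 3 alone. No member difference changed its direction except slc4a1a, at -0.081 without exercised fish 1 and 6.

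The median r among red cell genes was 0.38 to 0.69 over 29 alternatives. Between red cell genes and mb it was -0.15 with cyclic loess, -0.10 on deviations from the slide mean, -0.20 in exercised fish only, 0.23 in non-exercised fish only, 0.01 to 0.22 with 1 fish left out, and 0.49 without centring on the group mean, which adds the difference between the groups. The median differences of gene lists moved over 6 alternatives, to -0.17 to 0.59 for heart, -0.01 to 0.40 for endothelium, 0.04 to 0.57 for thrombocytes, 0.05 to 0.44 for other globins, 0.06 to 0.75 for liver and 0.13 to 0.31 for skin. Of all probes, 2790 were called, against 1398 without background correction, 774 with normexp, 4223 with cyclic loess, 82 with the slide block, 5712 with array weights, 15623 with slide 4 alone, 1641 without non-exercised fish 3, 1827 without non-exercised fish 7 and 1716 without exercised fish 2. Fish of the same replicate number deviated together to varying degrees (r = 0.03 to 0.41, 5 of 8 pairs above 0.1). Of the 8 exercised fish, 3 were most like the non-exercised fish of their own number. Whether the numbers pair the fish was not tested. With the replicate number as a block 3 member probes were called, beside 7.41% of all probes.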
